A study of Mus musculus with 16 samples.

Results

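DNA replication and mitosis genes are 42 genes whose products copy the chromosomes and then divide them, and they were followed here through the differentiation of mouse embryonic stem cells with and without the repressor REST. The members were the array probes whose platform gene symbol is one of the 42 names. The rule is by name alone, but the list of names was drawn up with earlier results of these data known. They comprised 21 genes of replication and 21 of mitosis, among 16593 genes on the array. A probe was found for 37 of the 42. Gins1, Gins2, Rfc3, Ccnb1 and Aurkb had no probe under their symbol. The probe of Kif20a, a kinesin of cell cleavage, was detected on 0 of 16 arrays (detection p of at least 0.0125), and the other 36 members, 18 of replication and 18 of mitosis, were tested among 7505 genes.

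The cells were REST -/- mouse embryonic stem cells, which are knockouts, and REST +/+ control stem cells. Both were grown without feeder cells in the presence of leukemia inhibitory factor, which keeps stem cells undifferentiated, and both were measured at day 0 in that state and at days 3, 6 and 9 as embryoid bodies, cell aggregates that begin to form the germ layers once the factor is withdrawn. There were 2 Illumina bead arrays for each genotype and day, 16 in all, each with the cRNA of 1 RNA sample. The labels number these arrays but do not say that they came from separate cultures, so p-values measure the spread between arrays, which may be technical. The labels name no separate lines or clones within a genotype, so the deletion and any other difference between the 2 kinds of cells cannot be told apart.

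Between 6300 and 9045 probes were detected per array (detection p below 0.01), and Pearson's r between the 2 arrays of a group, taken over genes, was 0.982 to 0.992. The array's Rest probe was detected on 0 of 16 arrays, with intensities of 1.26 to 32.0 in REST -/- cells and 4.00 to 44.0 in REST +/+ cells, so it gave no check of the genotype labels. Of 8 stem-cell markers, 8 were detected at day 0 in both genotypes and their summed linear level was 84164 to 85943 in REST -/- cells and 77393 to 82754 in REST +/+ cells. A level below is the background-corrected, quantile-normalized log2 intensity of a gene's brightest detected probe (log2 of the intensity plus 16), a log2 fold change is the difference of 2 group means ± its standard error (2 arrays per group, spread shared over 16 arrays), and a gene was called when its limma p, adjusted by the Benjamini-Hochberg method over the 7505 genes, was below 0.05. A probe's level says how one gene moves between samples and is not set against the level of another gene.

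Before a cell can copy its DNA, the loading factors Cdc6 and Cdt1 place a ring of Mcm2 to Mcm7, the replicative helicase, on each origin. Mcm10, Cdc45 and the GINS proteins switch the ring on, primase and DNA polymerase alpha lay down primers, and a clamp (Pcna) opened by a loader (the Rfc proteins) holds the polymerases on the template. Entry into mitosis is driven by Cdk1 with its cyclins, the spindle is built by kinases and motor proteins, the spindle checkpoint delays separation until every chromosome is attached, and the anaphase-promoting complex ends it. Mouse embryonic stem cells are known for a short first gap phase and rapid division, and the cycle lengthens when they differentiate.

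Most of the 36 measured members were lower at day 9 than at day 0 in both genotypes, and a difference between the genotypes was called for 1 of them. At day 9, against day 0, 32 of 36 were called lower and 0 higher in REST -/- cells, and 32 of 36 were called lower and 0 higher in REST +/+ cells. The 32 genes were the same in the 2 genotypes. They were 14 of the 18 replication genes and 18 of the 18 mitosis genes. Over all 7505 genes, 69.6% were called in REST -/- cells (35.4% higher and 34.2% lower) and 69.2% in REST +/+ cells (35.2% higher and 34% lower). The members' median log2 fold change was -1.03 in REST -/- cells and -1.09 in REST +/+ cells, against 0.01 in each for all genes. With the dim members at their bound, the medians were -0.98 in REST -/- cells and -1.08 in REST +/+ cells.

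Some members passed the filter through bright days alone, and such a gene had to differ. Of the 36, 32 were detected on all 16 arrays. When only genes detected on all arrays were tested, 28 of these 32 were called lower at day 9 in each genotype. That test covered 4025 genes, of which 1678 were called lower and 1112 higher in REST -/- cells. In REST +/+ cells 1690 of them were called lower and 1115 higher. Their median log2 fold change was -0.163 in REST -/- cells and -0.184 in REST +/+ cells. The 4 members not detected on all arrays were Mcm3, Mcm7, Pola1 and Bub1b, each dim on some days. Mcm7 was detected in neither day of the comparison in REST -/- cells and Bub1b in neither day in REST +/+ cells, so no fold is given for those. A further detected probe existed for 11 members, 16 probes in all, and these 16 moved down at day 9 in both genotypes, the same direction as the probe used.

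**Figure D1:**
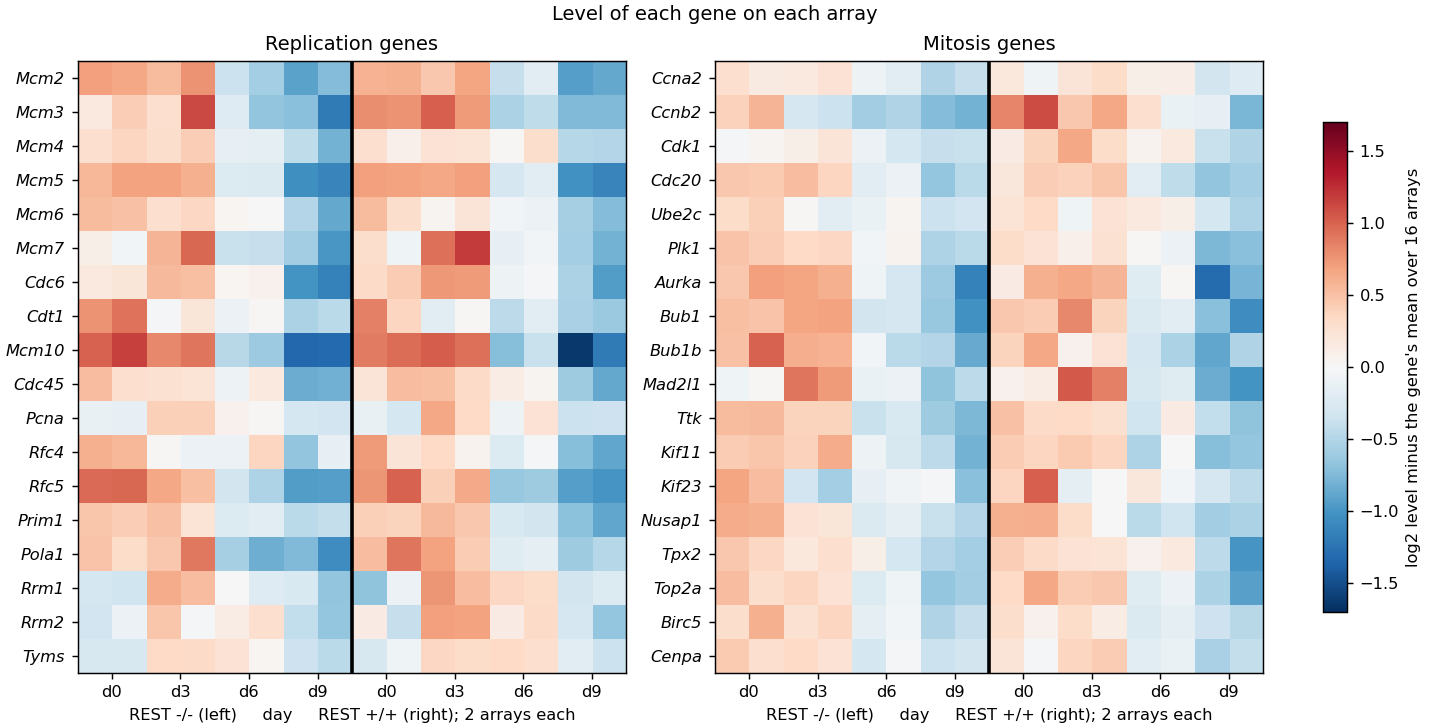
Level of each measured member on each array, as the log2 level minus the gene's own mean over the 16 arrays (red above, blue below), replication genes on the left and mitosis genes on the right. In each panel the 8 REST -/- arrays are left of the black line and the 8 REST +/+ arrays right of it, with 2 arrays per day. The day 9 arrays are blue for most genes in both genotypes, and Mcm10 has the deepest blue.

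The changes are given here by role, and a difference between roles was not tested. All 6 genes of the helicase ring, Mcm2 to Mcm7, were called lower at day 9 in both genotypes. Mcm7 was detected on neither day compared in REST -/- cells, so its call there is not read as a fall. Among the 4 detected on all arrays, log2 fold changes at day 9 were -1.71 (Mcm5) to -0.94 (Mcm4) in REST -/- cells. In REST +/+ cells they were -1.77 (Mcm5) to -0.67 (Mcm4). Mcm5 had log2 levels of 11.27 and 11.38 at day 0, 11.39 and 11.30 at day 3, 10.47 and 10.46 at day 6 and 9.67 and 9.57 at day 9 on the 2 REST -/- arrays of each day. On the REST +/+ arrays its log2 levels were 11.40 and 11.39 at day 0, 11.36 and 11.39 at day 3, 10.41 and 10.51 at day 6 and 9.67 and 9.58 at day 9. The 8 arrays of days 0 and 3 lay above the 8 of days 6 and 9 with no overlap, and the genotypes lay side by side on each day. Its change by day 9 was -1.71 ± 0.12, adjusted p = 1.06e-08, in REST -/- cells and -1.77 ± 0.12, adjusted p = 7.53e-09, in REST +/+ cells.

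Like Mcm5, Mcm2 had log2 levels of 9.46 and 9.43 at day 0, 9.30 and 9.53 at day 3, 8.40 and 8.18 at day 6 and 7.86 and 8.03 at day 9 on the 2 REST -/- arrays of each day. The REST +/+ arrays had 9.35 and 9.37 at day 0, 9.22 and 9.43 at day 3, 8.37 and 8.57 at day 6 and 7.82 and 7.90 at day 9. Mcm2 too had a plateau over days 0 and 3 and lower levels on both later days, in each genotype without overlap. Its change by day 9 was -1.50 ± 0.14 in REST -/- cells and -1.50 ± 0.14 in REST +/+ cells (adjusted p = 2.84e-07 and 3.04e-07). Mcm3 reached 7.21 and 7.46 at day 0, 7.33 and 8.16 at day 3, 6.83 and 6.37 at day 6 and 6.34 and 5.85 at day 9 (log2 levels) on the REST -/- arrays. Its REST +/+ levels were 7.84 and 7.81 at day 0, 8.06 and 7.77 at day 3, 6.50 and 6.61 at day 6 and 6.30 and 6.30 at day 9. Mcm3 was not detected on any day 9 array, so its fall is a lower bound: at least 1.75-fold lower in REST -/- cells (adjusted p = 0.000326) and at least 2.45-fold lower in REST +/+ cells (adjusted p = 5.2e-05). Such a bound sets the day 0 mean against the higher of the probe's own value and the dimmest detected probe of each day 9 array.

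Mcm10, which helps to switch the loaded helicase on, fell furthest of the 36 in both genotypes. Mcm10 had log2 levels of 10.03 and 10.19 at day 0, 9.83 and 9.93 at day 3, 8.55 and 8.41 at day 6 and 7.69 and 7.70 at day 9 on the 2 REST -/- arrays of each day. In REST +/+ cells the arrays read 9.91 and 9.97 at day 0, 10.05 and 9.96 at day 3, 8.31 and 8.65 at day 6 and 7.39 and 7.83 at day 9. Its levels stood apart by step: days 0 and 3 were high, day 6 was lower and day 9 lowest, with no overlap between these steps in either genotype. The change by day 6 was -1.63 ± 0.16 in REST -/- cells and -1.46 ± 0.16 in REST +/+ cells (adjusted p = 5.33e-07 and 1.74e-06), and by day 9 it was -2.41 ± 0.16 in REST -/- cells and -2.33 ± 0.16 in REST +/+ cells (adjusted p = 5.63e-09 and 8.58e-09). That is a 5.33-fold lower level in REST -/- cells and a 5.04-fold lower one in REST +/+ cells. Its partner Cdc45 fell by day 9 as well, by log2 fold changes of -1.23 ± 0.16 in REST -/- cells and -1.11 ± 0.16 in REST +/+ cells, but was not called at day 6 in either genotype.

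Of the clamp and its loader, the loader genes fell and the clamp did not pass the test. Rfc5 log2 levels on the REST -/- arrays were 10.72 and 10.74 at day 0, 10.42 and 10.27 at day 3, 9.45 and 9.24 at day 6 and 8.81 and 8.83 at day 9. The levels in REST +/+ cells were 10.51 and 10.76 at day 0, 10.16 and 10.41 at day 3, 9.11 and 9.16 at day 6 and 8.82 and 8.76 at day 9. Rfc5, a loader subunit, was already lower at day 3 than at day 0 (log2 fold change -0.38 ± 0.14 in REST -/- cells and -0.35 ± 0.14 in REST +/+ cells), and its change by day 9, -1.91 ± 0.14 in REST -/- cells and -1.85 ± 0.14 in REST +/+ cells (adjusted p = 1.65e-08 and 2.35e-08), was exceeded in size by that of Mcm10 alone among the members. Rfc4 had changes at day 9 of -0.99 ± 0.21 in REST -/- cells and -1.28 ± 0.21 in REST +/+ cells, both called. Pcna reached 14.04 and 14.03 at day 0, 14.57 and 14.57 at day 3, 14.25 and 14.18 at day 6 and 13.86 and 13.84 at day 9 (log2 levels) on the REST -/- arrays. On the REST +/+ arrays its log2 levels were 14.04 and 13.86 at day 0, 14.82 and 14.50 at day 3, 14.08 and 14.41 at day 6 and 13.81 and 13.82 at day 9. Pcna, the clamp itself, was bright on every array. Its highest levels were those of day 3 and its day 9 levels lay just under those of day 0, without overlap, by -0.18 ± 0.15 in REST -/- cells and -0.14 ± 0.15 in REST +/+ cells (adjusted p = 0.287 and 0.414, not called). With 2 arrays on each side, 41.3% of all genes were lower at day 9 without overlap in REST -/- cells and 40.5% in REST +/+ cells.

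The origin-loading genes Cdc6 and Cdt1 were called lower at day 9 in both genotypes, but by different paths. Cdt1 had log2 levels of 10.19 and 10.34 at day 0, 9.40 and 9.63 at day 3, 9.32 and 9.45 at day 6 and 8.88 and 8.97 at day 9 on the 2 REST -/- arrays of each day. The REST +/+ arrays had 10.28 and 9.80 at day 0, 9.23 and 9.44 at day 3, 8.98 and 9.24 at day 6 and 8.87 and 8.79 at day 9. Both day 0 arrays of each genotype lay above all its later arrays, and Cdt1 was called lower at day 3 already (log2 fold change -0.75 ± 0.17 in REST -/- cells and -0.70 ± 0.17 in REST +/+ cells). The call at day 3 in REST +/+ cells was lost with another scaling of the arrays (adjusted p = 0.11). For Cdc6 the day 3 change was 0.35 ± 0.14 in REST -/- cells and 0.35 ± 0.14 in REST +/+ cells, called in neither genotype, and the day 9 change -1.27 ± 0.14 in REST -/- cells and -1.12 ± 0.14 in REST +/+ cells. The primase subunit Prim1 and the polymerase alpha subunit Pola1 were called lower at day 6 and day 9 in both genotypes. Day 9 changes were -0.89 ± 0.13 in REST -/- cells and -1.18 ± 0.13 in REST +/+ cells for Prim1. For Pola1 they were -1.31 ± 0.18 in REST -/- cells and -1.26 ± 0.18 in REST +/+ cells. In REST -/- cells Pola1 was detected on 0 of 2 arrays at day 6 and on 1 of 2 at day 9, so its sizes there are uncertain.

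The 3 enzymes that supply DNA building blocks were not called lower at day 9. Rrm1 and Rrm2 are the subunits of ribonucleotide reductase and Tyms is thymidylate synthase. None of the 3 was called at day 9 in either genotype (0 also at an unadjusted p below 0.05), with log2 fold changes of -0.32 to -0.13 in REST -/- cells and -0.35 to 0.12 in REST +/+ cells. A second detected probe read lower than the one used, with changes of -0.51 in REST -/- cells and -0.64 in REST +/+ cells for Rrm2 and of -0.27 in REST -/- cells and -0.43 in REST +/+ cells for Tyms, and these were not tested. With Pcna the 3 enzymes were the 4 measured members that were not called lower at day 9. At day 3 they rose: 2 of 3 were called higher in REST -/- cells (Rrm1 and Tyms) and 3 of 3 in REST +/+ cells.

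Rrm1 log2 levels on the REST -/- arrays were 9.71 and 9.67 at day 0, 10.64 and 10.53 at day 3, 10.01 and 9.78 at day 6 and 9.74 and 9.33 at day 9. Its REST +/+ levels were 9.33 and 9.91 at day 0, 10.76 and 10.53 at day 3, 10.36 and 10.32 at day 6 and 9.70 and 9.78 at day 9. Both genotypes had their highest Rrm1 levels at day 3, above all day 0 arrays, and the REST +/+ arrays were still above their day 0 arrays at day 6. The rise by day 3 was 0.89 ± 0.19 in REST -/- cells and 1.02 ± 0.19 in REST +/+ cells (adjusted p = 0.00128 and 0.000358). At day 6 the change was 0.20 ± 0.19 in REST -/- cells and 0.72 ± 0.19 in REST +/+ cells, called in REST +/+ cells (adjusted p = 0.00355) and not in REST -/- cells (adjusted p = 0.369). The difference between those changes was -0.52 ± 0.26 and was not called (adjusted p = 0.577). Without day 0 replicate 1 of REST +/+ cells, the lowest Rrm1 array of that genotype, the day 6 call in REST +/+ cells was lost (adjusted p = 0.0616).

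Tyms reached 10.85 and 10.86 at day 0, 11.47 and 11.45 at day 3, 11.37 and 11.16 at day 6 and 10.78 and 10.67 at day 9 (log2 levels) on the REST -/- arrays. In REST +/+ cells the arrays read 10.86 and 11.05 at day 0, 11.47 and 11.44 at day 3, 11.47 and 11.41 at day 6 and 10.94 and 10.76 at day 9. Tyms was higher at days 3 and 6 than at day 0 on every array of both genotypes, and at day 9 it was back near its day 0 levels. Its change by day 6 was 0.41 ± 0.13 in REST -/- cells and 0.48 ± 0.13 in REST +/+ cells (adjusted p = 0.0137 and 0.00514). The REST -/- call at day 6 was lost when either day 0 array or day 6 replicate 1 of REST -/- cells was left out (adjusted p of 0.0546 to 0.13). Rrm2 changed by 0.44 ± 0.20 in REST -/- cells and 0.82 ± 0.20 in REST +/+ cells at day 3 and was called in REST +/+ cells alone, with a difference in change of -0.38 ± 0.29 (adjusted p = 0.628).

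**Figure D2:**
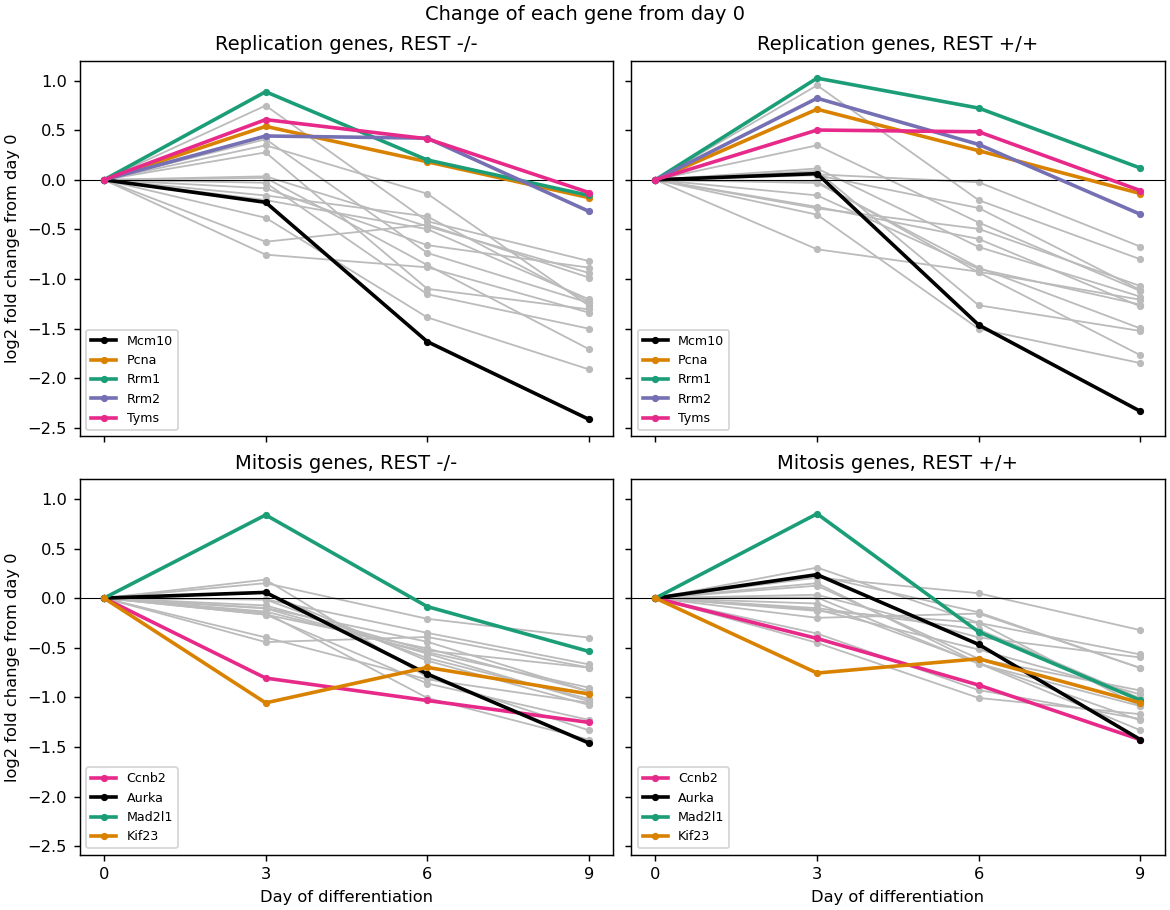
Log2 fold change from day 0 of each measured member at days 3, 6 and 9, with replication genes above and mitosis genes below, REST -/- cells on the left and REST +/+ cells on the right. Each line is 1 gene and the named genes are coloured. Rrm1, Rrm2, Tyms and Pcna end between -0.35 and 0.12 and most other lines end lower, Mcm10 lowest at -2.41 in REST -/- cells and -2.33 in REST +/+ cells, and Mad2l1 peaks at day 3 in both genotypes.

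At day 3, before the common fall, members moved in both directions. In REST -/- cells 5 were called higher and 7 lower, against 46.2% of all genes called (24.6% higher and 21.6% lower). In REST +/+ cells 6 were called higher and 4 lower, against 51.5% of all genes (27.2% higher and 24.4% lower). The share of members called, 12 and 10 of 36, was below that background. Mcm7, Pcna, Rrm1, Tyms and Mad2l1 were called higher in both genotypes, and Rrm2 in REST +/+ cells. Cdt1, Rfc5, Kif23 and Nusap1 were called lower in both, and Rfc4, Ccnb2 and Ube2c in REST -/- cells. These splits moved with the scaling: with arrays centred on their medians the counts at day 3 were 7 higher and 3 lower in REST -/- cells and 14 higher and 0 lower in REST +/+ cells, while the median of all genes shifted to 0.16 and 0.23.

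The mitosis genes at day 3 ranged from Kif23, a kinesin of the central spindle, to the checkpoint gene Mad2l1. Kif23 had log2 levels of 9.18 and 9.03 at day 0, 8.17 and 7.92 at day 3, 8.36 and 8.45 at day 6 and 8.49 and 7.79 at day 9 on the 2 REST -/- arrays of each day. The levels in REST +/+ cells were 8.86 and 9.51 at day 0, 8.35 and 8.51 at day 3, 8.70 and 8.46 at day 6 and 8.21 and 8.06 at day 9. In REST -/- cells both day 3 arrays lay below both day 0 arrays, and likewise in REST +/+ cells, but the day 9 arrays of REST -/- cells and the day 6 arrays of REST +/+ cells overlapped with those of day 3. The change by day 3 was -1.06 ± 0.23 in REST -/- cells and -0.76 ± 0.23 in REST +/+ cells (adjusted p = 0.00147 and 0.0121). The REST +/+ call was lost without its day 0 replicate 2 (adjusted p = 0.164), without its day 3 replicate 1 (adjusted p = 0.0748) and with median centring (adjusted p = 0.0584).

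Mad2l1 log2 levels on the REST -/- arrays were 9.35 and 9.45 at day 0, 10.33 and 10.15 at day 3, 9.31 and 9.32 at day 6 and 8.74 and 8.98 at day 9. On the REST +/+ arrays its log2 levels were 9.49 and 9.56 at day 0, 10.47 and 10.28 at day 3, 9.15 and 9.22 at day 6 and 8.59 and 8.40 at day 9. Mad2l1 encodes the checkpoint protein that holds back the anaphase-promoting complex, and its day 3 arrays stood above all other arrays in both genotypes. It rose at day 3 by 0.84 ± 0.14 in REST -/- cells and 0.85 ± 0.14 in REST +/+ cells (adjusted p = 0.000174 and 0.000134) and was lower than at day 0 by day 9, -0.54 ± 0.14 in REST -/- cells and -1.03 ± 0.14 in REST +/+ cells (adjusted p = 0.00291 and 1.01e-05). The difference between the 2 day 9 changes, 0.49 ± 0.20, was not called (adjusted p = 0.296).

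Mcm7 reached 6.79 and 6.65 at day 0, 7.27 and 7.66 at day 3, 6.31 and 6.30 at day 6 and 6.11 and 5.70 at day 9 (log2 levels) on the REST -/- arrays. The REST +/+ arrays had 6.99 and 6.61 at day 0, 7.63 and 7.88 at day 3, 6.55 and 6.64 at day 6 and 6.11 and 5.89 at day 9. Mcm7 of the helicase ring shared the peak at day 3. It was not detected on the day 0, 6 and 9 arrays of REST -/- cells nor on the day 9 arrays of REST +/+ cells, so its rise by day 3 in REST -/- cells is a bound of at least 1.49-fold (adjusted p = 0.0038). In REST +/+ cells the rise by day 3 was 0.95 ± 0.18, adjusted p = 0.000562.

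By day 6 the fall was under way. In REST -/- cells 26 members were called lower and 1 higher, against 61.6% of all genes called (31.7% higher and 29.9% lower), and in REST +/+ cells 23 were called lower and 2 higher, against 63% of all genes (32.4% higher and 30.6% lower). In all 20 members were called lower in both genotypes, and Tyms was called higher in both. The median log2 fold change of the members was -0.55 in REST -/- cells and -0.51 in REST +/+ cells (-0.54 and -0.48 with dim members at their bound). Of the mitosis genes 16 of 18 were called lower in REST -/- cells and 12 of 18 in REST +/+ cells, and of the replication genes 10 and 11 of 18. Under median centring, which moved the median of all genes to 0.25 and 0.33, the counts were 13 lower and 3 higher in REST -/- cells and 10 lower and 4 higher in REST +/+ cells. Relative to the median of all genes the members' median stayed alike, at -0.56 with quantile normalization and -0.60 with median centring in REST -/- cells, and at -0.53 and -0.48 in REST +/+ cells.

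The 18 mitosis genes were called lower at day 9 in both genotypes, by sizes that differed from gene to gene. Of the cyclin and kinase genes that drive mitotic entry, Ccna2, Ccnb2 and Cdk1 were called lower in both genotypes. With the probes used, the smallest called fall among the members detected on all arrays was that of Cdk1 in REST -/- cells and that of Ccna2 in REST +/+ cells. Cdk1 changed by -0.40 ± 0.15 in REST -/- cells and -0.70 ± 0.15 in REST +/+ cells, and Ccna2 by -0.67 ± 0.13 in REST -/- cells and -0.32 ± 0.13 in REST +/+ cells. A second detected probe of Cdk1 read -0.95 in REST -/- cells and -0.76 in REST +/+ cells and was not tested. The rank of Cdk1 in REST -/- cells therefore depends on the probe. Aurka had log2 levels of 8.63 and 8.88 at day 0, 8.85 and 8.78 at day 3, 8.10 and 7.88 at day 6 and 7.56 and 7.03 at day 9 on the 2 REST -/- arrays of each day. Its REST +/+ levels were 8.32 and 8.79 at day 0, 8.83 and 8.75 at day 3, 7.97 and 8.20 at day 6 and 6.87 and 7.38 at day 9. Aurka, a kinase of the spindle poles, was high at days 0 and 3 and lowest at day 9 in both genotypes. Its change by day 9 was -1.46 ± 0.21 in REST -/- cells and -1.43 ± 0.21 in REST +/+ cells (adjusted p = 2.13e-05 and 2.8e-05). The polo kinase gene Plk1 changed by -0.94 ± 0.12 in REST -/- cells and -1.01 ± 0.12 in REST +/+ cells.

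Cdc20 and Ube2c, which work with the anaphase-promoting complex, were called lower at day 9 in both genotypes, Cdc20 by -1.02 ± 0.14 in REST -/- cells and -0.93 ± 0.14 in REST +/+ cells and Ube2c by -0.70 ± 0.15 in REST -/- cells and -0.70 ± 0.15 in REST +/+ cells. All 4 checkpoint genes were called lower at day 9 in both genotypes. Bub1b was detected on neither day compared in REST +/+ cells, so its call there is not read as a fall. For the 3 detected on all arrays (Bub1, Mad2l1 and Ttk) the change lay between -1.33 (Bub1) and -0.54 (Mad2l1) in REST -/- cells and between -1.33 (Bub1) and -0.97 (Ttk) in REST +/+ cells. For Bub1b in REST -/- cells the bound was at least 1.57-fold lower. The spindle genes Kif11, Kif23, Nusap1 and Tpx2 and the chromosome genes Top2a, Birc5 and Cenpa were called lower in both genotypes as well, from -1.08 (Kif11) to -0.70 (Cenpa) in REST -/- cells and from -1.23 (Top2a) to -0.57 (Cenpa) in REST +/+ cells.

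Day by day, 21 of the 36 members had their highest group mean at day 0 and 15 at day 3 in REST -/- cells, and 16 had it at day 0 and 20 at day 3 in REST +/+ cells. None was highest at day 6 or 9 in either genotype. The lowest group mean was that of day 9 for 35 of 36 members in REST -/- cells and for 35 of 36 in REST +/+ cells. The exceptions were Kif23, lowest at day 3 in REST -/- cells, and Rrm1, lowest at day 0 in REST +/+ cells.

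The cell types in the cultures moved over the same days. The summed linear level of the 8 stem-cell markers was 3623 to 5183 at day 9 in REST -/- cells, with Pou5f1 and Klf4 not detected. In REST +/+ cells it was 2207 to 3081, with Pou5f1, Esrrb and Tdgf1 not detected. These sums were lower still at day 6, 1491 to 1741 in REST -/- cells and 1033 to 1423 in REST +/+ cells, so they did not fall further between days 6 and 9. At day 9 the 8 mesenchyme markers summed to 104199 to 106263 in REST -/- cells and 121359 to 122948 in REST +/+ cells, with 7 of 8 detected in each, whereas at day 0 they summed to 253 to 273 in REST -/- cells and 377 to 495 in REST +/+ cells. Liver-type markers (4 of 8 detected in REST -/- cells and 5 of 8 in REST +/+ cells), cardiac markers (5 of 6 in each) and blood markers (3 of 5 in each) were present at day 9 and undetected at day 0. Of 6 neural markers 2 were detected on each of these days in both genotypes, Pax6 and Map2 at day 0 and Nes and Map2 at day 9. The part of these cell types in the fall of the members was not tested. In bulk RNA, fewer dividing cells and less of these RNAs per cell cannot be told apart.

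Promoter sequence was looked at because the members moved together, and 7 promoters are printed below as examples. RefSeq (GRCm38.p6) promoters, 250 bases before to 50 bases after a transcription start of the gene, were at hand for 33 of the 36 measured members. For some genes that start lies inside the gene's full span. Motifs were searched on both strands by their letters: E2F sites as TTTCCCGC or TTTGGCGC, the cell cycle homology region (CHR) as TTTGAA, and the CCAAT box as CCAAT. E2F factors are known to act on genes of the replication phase, and the CHR is known as the element through which the DREAM and MYB-MuvB complexes act on late cell cycle genes. A gene was counted if any of its promoters held a match, since some genes have more than 1 (Mcm7 among the members). An E2F match was found for 7 of 17 replication genes (41.2%) and 0 of 16 mitosis genes, against 1.8% of the 27025 genes of the table (1.56% of its 32851 single promoters). A CHR match was found for 2 of 17 replication genes (11.8%) and 12 of 16 mitosis genes (75.0%), against 20.2% of all genes (17.9% of promoters). CCAAT was found for 12 of 17 replication genes (70.6%) and 13 of 16 mitosis genes (81.2%), against 41.1% of all genes (37.4% of promoters). No matches of different motifs overlapped. A match describes these letters and is not a measured binding site, and a promoter without one says only that the letters are not in this window.

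The 160 bases before that transcription start are shown 5′ to 3′ along the gene's strand, with the matches to E2F, CHR and CCAAT on either strand in capitals. The full span of Mcm5 begins at 75109468 and that of Top2a, on the minus strand, at 99024199, so the last bases printed for these 2 lie inside it. Mcm10 is shown as the member that fell most, Mcm5 and Mcm6 for their E2F matches, Ccnb2 as the member that differed between the genotypes, and Cdk1, Cdc20 and Top2a for their CHR matches.
Mcm10, chr2:5012792-5012951, minus strand: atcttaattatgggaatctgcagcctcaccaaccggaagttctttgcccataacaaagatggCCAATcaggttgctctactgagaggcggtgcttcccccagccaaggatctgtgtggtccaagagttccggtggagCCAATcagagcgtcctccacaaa
Mcm5, chr8:75109349-75109508, plus strand: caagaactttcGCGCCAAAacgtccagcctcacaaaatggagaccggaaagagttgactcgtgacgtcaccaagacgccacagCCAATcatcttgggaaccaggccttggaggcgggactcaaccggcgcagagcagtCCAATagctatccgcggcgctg
Mcm6, chr1:128359706-128359865, minus strand: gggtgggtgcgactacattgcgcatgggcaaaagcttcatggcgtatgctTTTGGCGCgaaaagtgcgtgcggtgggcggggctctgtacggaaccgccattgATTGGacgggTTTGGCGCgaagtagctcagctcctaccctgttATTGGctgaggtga
Ccnb2, chr9:70421555-70421714, minus strand: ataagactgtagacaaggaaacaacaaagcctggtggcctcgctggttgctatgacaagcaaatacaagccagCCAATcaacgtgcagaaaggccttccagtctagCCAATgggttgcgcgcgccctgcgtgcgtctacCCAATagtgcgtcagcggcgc
Cdk1, chr10:69352913-69353072, minus strand: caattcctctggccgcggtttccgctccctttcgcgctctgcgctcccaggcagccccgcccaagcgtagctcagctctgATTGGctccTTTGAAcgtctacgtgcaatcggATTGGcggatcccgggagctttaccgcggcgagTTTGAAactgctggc
Cdc20, chr4:118437344-118437503, minus strand: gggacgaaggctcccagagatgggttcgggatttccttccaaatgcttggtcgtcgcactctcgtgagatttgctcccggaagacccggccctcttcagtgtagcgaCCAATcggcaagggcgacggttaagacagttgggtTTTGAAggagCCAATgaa
Top2a, chr11:99024190-99024349, minus strand: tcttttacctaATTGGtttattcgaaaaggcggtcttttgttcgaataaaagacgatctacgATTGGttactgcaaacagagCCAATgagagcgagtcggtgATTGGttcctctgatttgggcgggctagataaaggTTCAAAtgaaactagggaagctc

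In these stretches Mcm6 had 2 E2F matches and Mcm5 1, while Mcm10, which fell further than either, had CCAAT boxes and no E2F match in the window. Cdk1 had 2 CHR matches, each close to a CCAAT box, and Cdc20 and Top2a had 1 CHR match in the bases shown. The CHR matches of Ccnb2 lay outside the bases shown, and its stretch held 3 CCAAT boxes. The 7 replication genes with an E2F match (Mcm3, Mcm5, Mcm6, Mcm7, Cdc6, Cdt1 and Pola1) were called lower at day 9 in both genotypes. Of the 10 without one, 6 were called lower in both (Mcm2, Mcm10, Cdc45, Prim1, Rfc4 and Rfc5) and Pcna, Rrm1, Rrm2 and Tyms in neither. Among the genes with a match, Mcm3, Mcm7 and Pola1 were dim on some days. A gene that passed the filter through its bright days alone had to differ, so these counts are not a fair comparison. Whether a match goes with the fall was not tested.

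**Figure D3:**
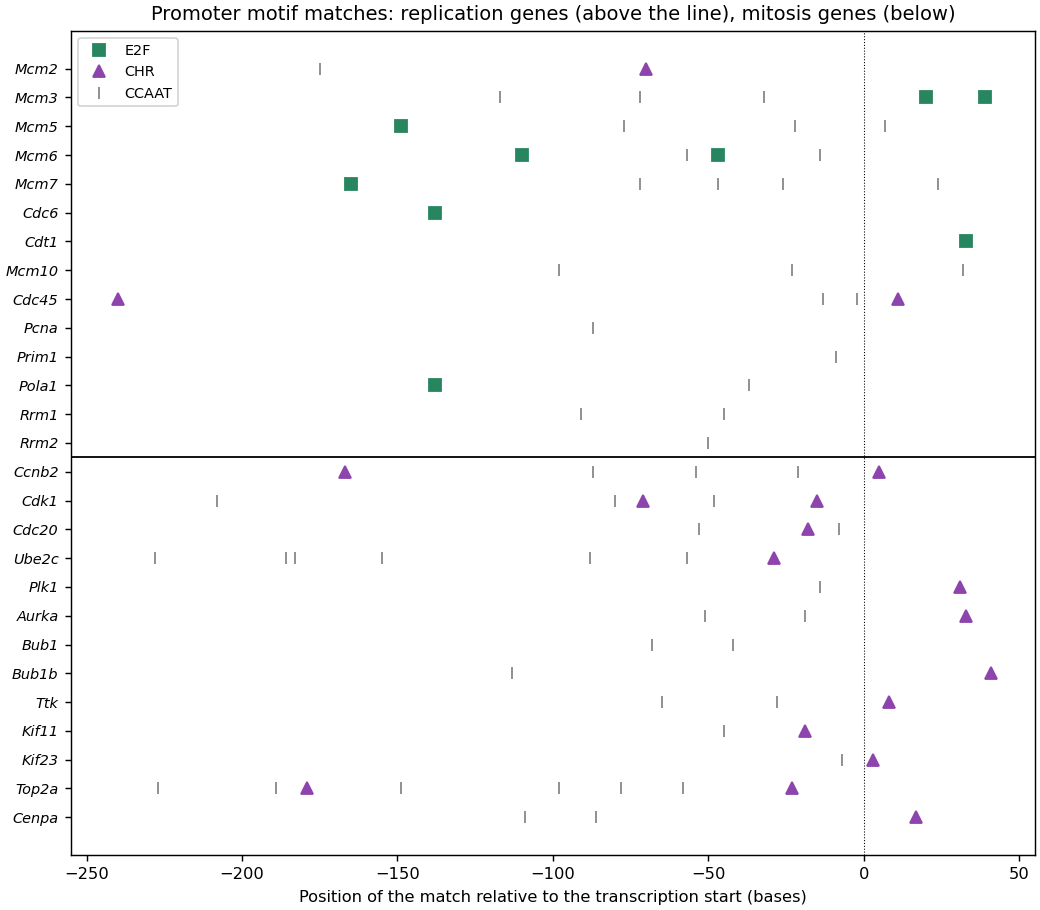
Position of each motif match in the promoters of the measured members, in bases relative to the transcription start (dotted line), replication genes above the solid line and mitosis genes below it. Squares are E2F, triangles CHR and bars CCAAT; only genes with a match are drawn. Squares appear only above the line, in 7 genes, and triangles in 2 genes above it and 12 below it.

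Between the genotypes, 1 member was called: Ccnb2, which encodes cyclin B2, a mitotic partner of Cdk1. Ccnb2 log2 levels on the REST -/- arrays were 10.00 and 10.18 at day 0, 9.32 and 9.24 at day 3, 9.01 and 9.10 at day 6 and 8.87 and 8.80 at day 9. In REST +/+ cells the arrays read 10.44 and 10.71 at day 0, 10.07 and 10.26 at day 3, 9.89 and 9.50 at day 6 and 9.46 and 8.83 at day 9. At days 0, 3 and 6 both REST -/- arrays lay below both REST +/+ arrays. The same was true of 20.4%, 25% and 20.8% of all genes on those days. At day 9 the lower REST +/+ array of Ccnb2 fell within the range of its REST -/- arrays. The difference, REST -/- minus REST +/+, was -0.48 ± 0.19 at day 0 (adjusted p = 0.263). It was -0.88 ± 0.19 at day 3, the one day on which it was called (adjusted p = 0.0112). For day 6 it was -0.64 ± 0.19 (adjusted p = 0.15), and for day 9 -0.31 ± 0.19 (adjusted p = 0.473). Averaged over the 4 days it was -0.58 ± 0.10 (95% interval -0.79 to -0.37, adjusted p = 0.00125), a 1.49-fold lower level in REST -/- cells. The day 3 call was lost without day 3 replicate 2 of REST +/+ cells (adjusted p = 0.0805) and without day 3 replicate 2 of REST -/- cells (adjusted p = 0.102). The call on the average held in each of the 24 alternatives run.

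**Figure D4:**
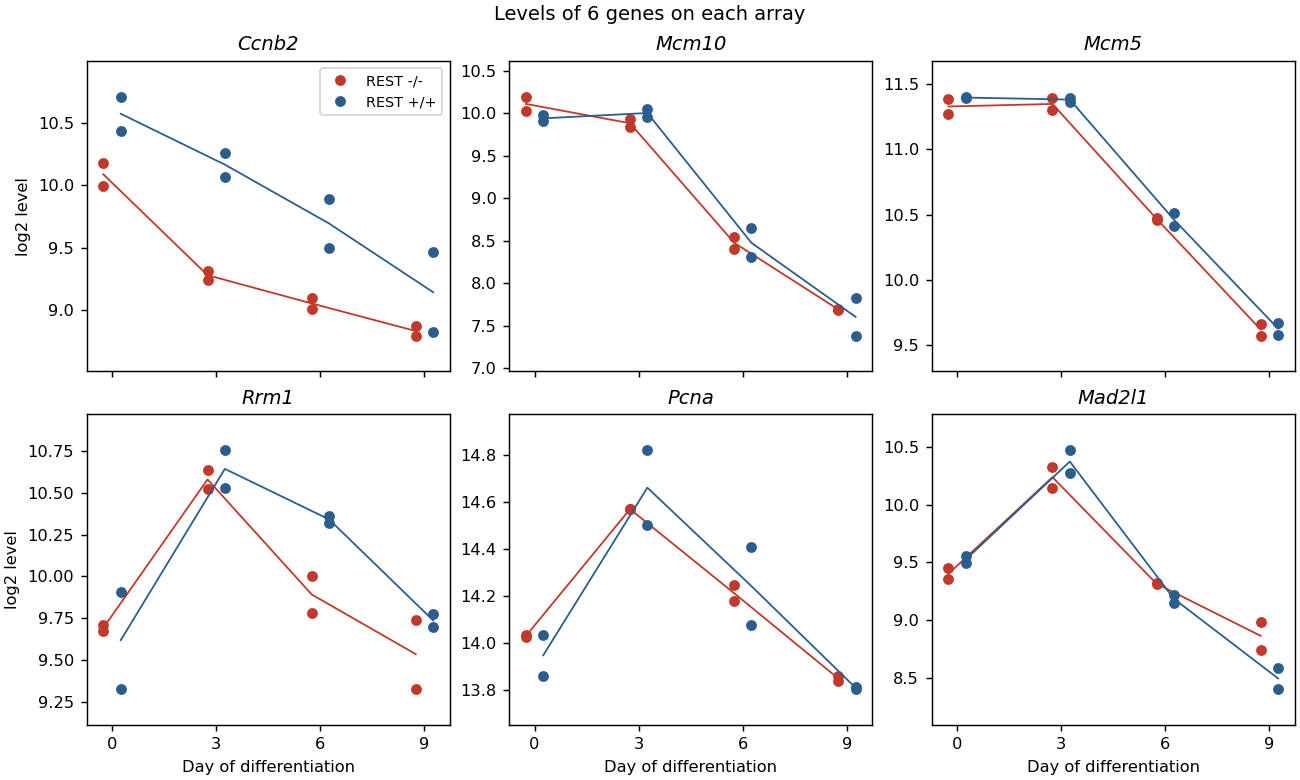
Log2 level of 6 members on each array by day, with REST -/- arrays in red, drawn left of the REST +/+ arrays in blue; lines join the group means of 2 arrays. In Ccnb2 the red points lie below the blue ones at days 0, 3 and 6. The other 5 genes have overlapping or neighbouring points of both genotypes on most days.

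For the other 35 measured members no genotype difference passed the test. At day 0, 0 of 36 members were called (1 at an unadjusted p below 0.05), against 2.19% of all genes. At day 3, 1 was called (Ccnb2, 4 unadjusted), against 6.8%. At day 6, 0 were called (4 unadjusted), against 1.75%, and at day 9, 0 (3 unadjusted), against 5.12%. On the average of the 4 days 1 was called (Ccnb2, 6 unadjusted), against 10.2% of all genes. In limma's fit the members' median difference on that average was -0.00071, the median size of the difference was 0.0891 log2 for members and 0.108 for all genes, and 18 members lay above 0 and 18 below.

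A missed threshold does not show that the genotypes were alike, and the intervals say how large a difference could be. The 95% interval of the averaged difference lay within 0.5 log2 of 0 for 35 of 36 members, Ccnb2 being the exception, and within 1 log2 for all 36. Next to Ccnb2, the members with the lowest adjusted p were Pola1 at -0.27 ± 0.09, adjusted p = 0.0826, Cdk1 at -0.21 ± 0.07, adjusted p = 0.0851, and Plk1 at 0.16 ± 0.06, adjusted p = 0.123, none of them called. The second detected probe of Cdk1 differed by 0.01 on that average and was not tested. With arrays centred on their medians, which moved the median difference of all genes to 0.10, 6 members were called on the average: Ccnb2 lower, and Cdt1, Rfc5, Cdc20, Plk1 and Nusap1 higher, by 0.22 to 0.32. Over all 7505 genes that scaling called 17.5% on the average (1097 higher and 213 lower), so 6 of 36 members is near the background. At day 9 that scaling called Prim1 (0.52) and Mad2l1 (0.56) higher, with the median of all genes at 0.17. Without day 0 replicate 1 of REST +/+ cells, Cdt1 (0.25) and Pola1 (-0.32) joined Ccnb2 on the average. Without day 3 replicate 2 of REST +/+ cells Cdk1 (-0.25) did, and without day 3 replicate 2 of REST -/- cells Pola1 (-0.32).

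**Figure D5:**
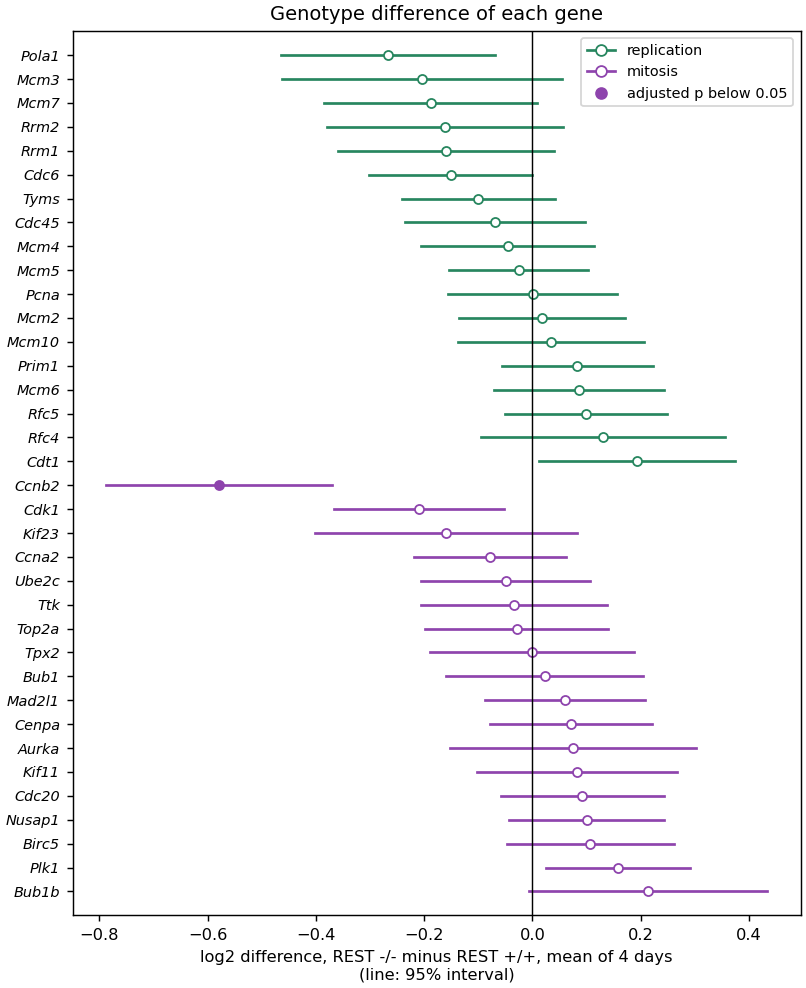
Log2 difference between REST -/- and REST +/+ cells for each measured member, averaged over the 4 days, with the 95% interval of limma's fit; replication genes are green and mitosis genes purple, and a filled point marks an adjusted p below 0.05. The interval of Ccnb2, from -0.79 to -0.37, lies apart from 0, and the other points lie between -0.27 and 0.21.

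The time course itself was tested for a genotype difference. The change from day 0 differed between the genotypes for 0 of 36 members at day 3 (0 at an unadjusted p below 0.05), against 2.66% of all genes, for 0 at day 6 (1 unadjusted), against 1.01%, and for 0 at day 9 (1 unadjusted), against 2.25%. The 95% interval of that difference at day 9 lay within 1 log2 for 35 of 36 members and within 0.5 log2 for 7 of 36, and the widest interval reached 0.73 log2 to either side. As a description, the changes in REST -/- cells and those in REST +/+ cells, which share no array, correlated across the 36 members with Pearson's r of 0.906 at day 3, 0.902 at day 6 and 0.925 at day 9, against 0.889, 0.956 and 0.953 across the 7505 genes. Genes are not independent replicates.

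Further genes of the same processes, in lists written with earlier results of these data known, moved the same way at day 9. Of 36 other replication genes 31 were tested, and 26 were called lower and 0 higher in REST -/- cells and likewise 26 and 0 in REST +/+ cells, with medians of -0.97 and -0.92. Over all genes, 34.2% were called lower in REST -/- cells and 34% in REST +/+ cells. Orc1, the largest subunit of the origin recognition complex, changed by -3.18 ± 0.18 in REST -/- cells and -3.11 ± 0.18 in REST +/+ cells (adjusted p = 9.73e-10 and 1.25e-09), more than any of the 36 members. Dbf4, which activates the Cdc7 kinase at origins, changed by -2.30 ± 0.19 in REST -/- cells and -2.10 ± 0.19 in REST +/+ cells. At day 3 Fen1, which trims Okazaki fragments, rose by 1.08 ± 0.14 in REST -/- cells and 1.01 ± 0.14 in REST +/+ cells, and Dut, which removes dUTP, by 1.29 ± 0.25 in REST -/- cells and 1.59 ± 0.25 in REST +/+ cells, the same day as Rrm1 and Tyms.

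Of 38 other mitosis genes 26 were tested, and 20 were called lower and 0 higher at day 9 in each genotype (against the same 34.2% and 34% of all genes), with medians of -1.18 in REST -/- cells and -1.15 in REST +/+ cells. Hmmr, a spindle-assembly protein, changed by -3.10 ± 0.39 in REST -/- cells and -3.12 ± 0.39 in REST +/+ cells, and Espl1, the separase that cuts cohesin, by -1.94 ± 0.15 in REST -/- cells and -2.12 ± 0.15 in REST +/+ cells. At day 3 Anln, a cleavage-furrow protein, fell by log2 fold changes of -1.18 ± 0.18 in REST -/- cells and -1.33 ± 0.18 in REST +/+ cells, alongside Kif23. Between the genotypes none of the other mitosis genes was called on any day or on the average (0 to 2 at an unadjusted p below 0.05 per comparison). Of the other replication genes Pole, the catalytic subunit of polymerase epsilon, was called lower in REST -/- cells at day 9 (-0.65 ± 0.16, adjusted p = 0.0298), and Rpa2, a subunit of the single-strand binding protein, on the average (-0.44 ± 0.10, adjusted p = 0.0114). The call of Pole was lost in 6 of the 24 alternatives and that of Rpa2 with the mean of all its detected probes (adjusted p = 0.0528).

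The regulators of the first gap phase, 17 of 30 tested, were called in both directions: 5 higher and 7 lower at day 9 in REST -/- cells, and 7 higher and 6 lower in REST +/+ cells. All genes were split likewise, with 35.4% higher and 34.2% lower in REST -/- cells and 35.2% higher and 34% lower in REST +/+ cells. Mybl2, which encodes the B-MYB subunit of the MYB-MuvB complex, had log2 levels of 10.87 and 10.90 at day 0, 8.78 and 8.84 at day 3, 7.33 and 7.38 at day 6 and 7.56 and 7.07 at day 9 on the REST -/- arrays. On the REST +/+ arrays its log2 levels were 10.79 and 10.74 at day 0, 7.50 and 8.27 at day 3, 6.91 and 6.77 at day 6 and 6.94 and 6.99 at day 9. Mybl2 had lower levels at every later day than at day 0 in both genotypes. It was higher in REST -/- than in REST +/+ cells at day 3 by 0.93 ± 0.21, adjusted p = 0.0124, a call that was lost without day 3 replicate 1 of REST +/+ cells (adjusted p = 0.205) or without either day 3 array of REST -/- cells (adjusted p = 0.056 and 0.103). Averaged over the 4 days Mybl2 was higher in REST -/- cells by 0.48 ± 0.10 (limma adjusted p = 0.00891). That call was lost in 1 of the 24 alternatives, the mean of all detected probes (adjusted p = 0.227). Lin54 was called higher on the same average (0.30 ± 0.08, adjusted p = 0.0276), a call lost in 11 of the 24. Ccnd3 was called lower (-0.30 ± 0.07, adjusted p = 0.0169), a call lost with median centring (adjusted p = 0.143). The cell cycle inhibitor gene Cdkn1c rose by day 9 by 1.34 ± 0.23 in REST -/- cells and 2.08 ± 0.23 in REST +/+ cells. The cyclin gene Ccne1 was not detected on any day 9 array. It was at least 2.59-fold lower than at day 0 in REST -/- cells (adjusted p = 1.09e-05) and at least 3.07-fold lower in REST +/+ cells (adjusted p = 1.03e-05).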

How the data were processed

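The deposited table held, per the file headers, an intensity for each probe on each array, not yet normalized, and beside it a detection p-value. The authors had subtracted the background, as judged from the values, since 25.5% to 28.0% of them per array were below 0. A second deposited table of intensity values, normalized by the authors, served as an alternative. Per the labels' protocols, biotinylated cRNA was made with the Ambion MessageAmp kit, and the scanner software is not given in those sources.

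Intensities of 25697 probes were processed in R 4.3.3 with limma 3.58.1, function neqc (normexp background correction inferred from the detection p-values, offset 16, quantile normalization, log2), so a fold change understates the change of dim genes. A probe was kept if both arrays of some group had a detection p below 0.01 (10241 probes). GEO's platform annotation named 1 gene for 23978 probes, more than 1 for 0 and no gene for 1719, and the brightest probe on average stood for a gene (7505 genes). A model with 1 mean for each of the 8 groups was fitted to 16 arrays with lmFit and eBayes (residual degrees of freedom 8, prior 6.4). P-values of each of 14 comparisons were adjusted over all genes. The number of arrays limits the precision.

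Named members were those called between genotypes, the 5 largest changes per direction at day 9 and the 2 largest at days 3 and 6 in each genotype, and the 3 with the smallest change by day 9. Up to 3 genes per direction could be named from each further list. The members and lists were chosen with earlier results of these data known. Alternatives were another scaling, no background correction, the authors' table, other probe filters and rules, a replicate block (statmod 1.5.0), an intensity trend and leaving out each array.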

Additional observations from a re-analysis of the deposited data

Results flagged for a closer look

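2 genes outside the 42, both cyclin D genes of the first gap phase, differed between the genotypes in their change from day 0 to day 9. For Ccnd2 the fitted difference in change, REST -/- minus REST +/+, was -1.92 ± 0.23 (limma adjusted p = 0.000117). Ccnd2 was not detected at day 0 in REST +/+ cells, so the size of this difference is not a settled value. By day 9 its rise was 4.38-fold in REST -/- cells (log2 fold change 2.13 ± 0.16) and, as a bound, at least 8.51-fold in REST +/+ cells. At day 9 itself, where it was detected in both genotypes, Ccnd2 was lower in REST -/- cells (-1.04 ± 0.16, limma adjusted p = 0.000744). At day 0 it was called higher in REST -/- cells (limma adjusted p = 0.00873), and no size is given for that day. At day 6 it was higher too (0.68 ± 0.16, limma adjusted p = 0.0488), a call lost in 14 of the 23 alternatives that included it. For Ccnd1 the difference in change was -1.08 ± 0.26 (limma adjusted p = 0.0403), a call that was lost in 20 of the 24 alternatives run (adjusted p of 0.0524 to 0.173).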

How the results depend on the processing

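The 28 summary results (counts of members called and median log2 fold changes in 14 comparisons) were recomputed under 24 alternatives, 8 with all 16 arrays and 16 without 1 array. The fall at day 9 kept between 28 and 33 members called lower in each genotype. Of the 14 medians, 6 changed sign under some alternative, each of them within 0.052 log2 of 0 as reported: those of the averaged genotype difference (-0.04 to 0.13 over the alternatives), of the genotype difference at day 6 (-0.09 to 0.05) and day 9 (-0.06 to 0.23), of the change to day 3 in REST -/- cells (-0.09 to 0.15) and in REST +/+ cells (-0.02 to 0.34) and of the difference in change at day 9 (-0.08 to 0.03). So no direction is read from these. Centring arrays on their medians, in place of quantile normalization, moved 10 of the 14 medians most and leaving out an array the other 4, and the cause was not tested. It gave 6 members called on the averaged genotype difference (median 0.13), against 17.5% of all genes. For the genotype difference at day 9 it gave 2 (median 0.23), and at day 0 a median of 0.23. In the change to day 3 the median became 0.15 in REST -/- cells and 0.34 in REST +/+ cells, with a difference in change of -0.18. In the change to day 6 it gave 16 called (median -0.35) in REST -/- cells and 14 called (median -0.15) in REST +/+ cells, with a median difference in change of -0.20. Leaving out 1 array at a time gave 1 to 3 members called on the averaged genotype difference and 0 to 1 at day 3, and the median change to day 6 in REST +/+ cells ranged from -0.51 to -0.40 and was -0.40 without day 6 replicate 1 of REST +/+ cells. Among 1495 values of single genes under these alternatives, 1422 kept their direction and call, 73 kept the direction and lost the call, and 0 reversed. These genes were named because they were called, many with the largest changes, and in a comparison of 2 groups most left-out arrays belonged to neither. Much of this steadiness was therefore built in.

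Arrays with the same replicate number did not deviate together (r of -0.177 to 0.144 over 28 pairs of groups, 1 above 0.1). The values thus gave no sign that the numbers pair the samples. A low r cannot exclude a pairing, and the labels do not state one. With the replicate number as a block the counts of members called were 9 at day 3 and 24 at day 6 in REST +/+ cells, and each other count was the same as without it. The slide as a block was not run, since the files give no slide numbers. Of the 36 measured members, 32 were detected on all arrays, and signal over background limits what can be said of Mcm3, Mcm7, Pola1, Bub1b and Kif20a.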
